A study of Mus musculus with 6 samples.

Results

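The 287 genes described here are the protein-coding genes of mouse chromosome 16 that BV2 cells expressed at a measurable level. They were chosen by position and by measured values, namely a mean over the 6 libraries of at least 4 CPM (counts scaled to 1000000 library counts), from 663 protein-coding genes listed on the chromosome and 54532 genes in the count table. The chromosome itself was picked because its genes were already known to lie higher in one group of libraries than in the other. Its median change and its share of higher genes therefore describe that choice, and no test is given for them.

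BV2 is an immortalised mouse microglial cell line. Total RNA was sequenced from 3 libraries whose genotype is labelled SMEK1 knockdown (A, B and C) and 3 labelled WT (A, B and C), with no treatment or time in the labels. SMEK1 is a regulatory subunit of protein phosphatase 4, and its gene is listed as Ppp4r3a. The means of knockdown, any control construct in the WT cells, and whether either group is 1 clone or several separate cultures, are stated in no source used here. The p-values therefore measure the spread between these libraries only, which may be technical, and other differences between the cultures cannot be told apart from the knockdown. Ppp4r3a was at 2.51 to 5.42 CPM in the knockdown libraries and at 13.5 to 18.1 CPM in WT (log2 fold change -1.94, SE 0.24). The knockdown libraries held 18627425 to 21131557 counts and the WT libraries 18036591 to 18708438, and 12269 genes had enough counts to be tested. All 10 microglia and macrophage markers checked had at least 1 CPM in each group, with summed levels of 3939 to 4396 CPM in the knockdown and 4423 to 4964 CPM in WT. Neuron, astrocyte, endothelial and fibroblast markers summed to at most 1.81 CPM in any library. The 4 oligodendrocyte markers summed to 7.15 to 7.26 CPM in the knockdown and 2.53 to 2.80 CPM in WT, with Mog at 0, and their part in the results was not tested. In bulk RNA, fewer cells expressing a gene and less RNA per cell cannot be told apart.

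Genes on one chromosome are carried by the same DNA molecule and share its number of copies, while each is transcribed from its own promoter and responds to its own regulators. Mouse chromosome 16 is known for segments whose gene order is conserved in human 22q11 and on human chromosome 21, and mice with extra copies of its distal part are used as models of Down syndrome. It also carries genes of interferon biology: a cluster of interferon and cytokine receptor genes, and separate loci of genes that interferon induces through interferon-stimulated response elements.

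Promoter windows were examined for the members, because the question was which genes share the common shift and which do not. RefSeq windows on GRCm38.p6, from 250 bases before to 50 after a gene's start, were found for 243 of the 287 members. Among the 4 interferon-induced members only Dtx3l has a window in that table. Rtp4, Parp14 and Parp9 have none there. The window of Dtx3l, which fell, is shown beside those of Klhl22 and Litaf, the pair whose change lay nearest the members' median. Capitals mark each match to the response element core GAAANNGAAA, searched on both strands, and the windows read 5′ to 3′ on the gene's own strand.
Dtx3l, chr16:35938978-35939277, minus strand: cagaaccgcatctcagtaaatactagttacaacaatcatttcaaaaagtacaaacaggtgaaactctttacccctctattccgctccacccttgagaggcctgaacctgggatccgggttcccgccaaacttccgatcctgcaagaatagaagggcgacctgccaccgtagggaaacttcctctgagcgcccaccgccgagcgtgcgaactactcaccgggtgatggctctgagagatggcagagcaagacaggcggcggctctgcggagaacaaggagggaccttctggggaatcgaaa
Klhl22, chr16:17759391-17759690, plus strand: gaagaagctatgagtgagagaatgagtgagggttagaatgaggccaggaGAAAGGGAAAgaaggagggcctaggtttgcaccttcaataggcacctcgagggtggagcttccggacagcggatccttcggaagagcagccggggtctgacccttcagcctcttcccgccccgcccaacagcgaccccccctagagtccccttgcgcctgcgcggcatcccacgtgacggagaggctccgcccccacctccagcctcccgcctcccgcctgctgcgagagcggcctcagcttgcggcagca
Litaf, chr16:10993072-10993371, minus strand: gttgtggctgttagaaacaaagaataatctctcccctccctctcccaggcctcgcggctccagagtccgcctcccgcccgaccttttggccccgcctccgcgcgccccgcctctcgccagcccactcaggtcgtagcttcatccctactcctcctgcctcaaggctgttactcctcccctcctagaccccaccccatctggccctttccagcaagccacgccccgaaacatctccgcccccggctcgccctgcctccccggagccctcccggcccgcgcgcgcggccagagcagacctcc
The Klhl22 window holds 1 match, GAAAGGGAAA at bases 50 to 59, and the windows of Dtx3l and Litaf hold 0. The core occurred in 5 of the 243 members with a window (2.06%), against 3.99% of 27025 genes in the whole promoter table. Those 5 were Alg1, Klhl22, Zdhhc8, 0610012G03Rik and Tomm70a, of which Alg1 and Tomm70a were called below the common shift and the other 3 were not told apart from it. By group, 2 of 45 windows of members below the shift (4.44%) held the core, against 0 of 46 above it and 3 of 152 of the rest (1.97%). Only 9 of the 17 members called lower than WT have a window, and 0 of these hold it. The other motif searched, the gamma-activated site core TTCNNNGAA, occurred in 17 members (7.0%), against 9.55% of all genes in the table. A match is a description of letters and not evidence of a bound site. The windows had a median GC content of 61.8% in members called above the common shift, 63.0% in those called below it and 62.3% in the rest. Base composition thus differed little between these groups. Over all genes of the promoter table the median was 52.7%, against 62.0% over the members. The motif shares of members and of that table are therefore not like for like.

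The typical member was 1.305-fold higher in the knockdown libraries than in WT. Log2 fold changes, always knockdown over WT on the scale of library sizes normalised by trimmed mean of M values (TMM), had a median of 0.38 over the members and a median of 0.01 over all genes tested. The middle 50.2% of members, 144 genes, lay within 0.25 of the median. The lower quartile was 0.11 and the upper quartile 0.60, and 237 of 287 members (82.6%) lay above 0, as did 51.0% of all genes tested. Of all counts, members took 1.91%, 1.99% and 1.94% in the knockdown libraries (always in the order A, B, C), and 1.43%, 1.40% and 1.43% in the WT libraries. The 3 knockdown libraries therefore held similar shares, and their range did not overlap that of WT.

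The median member was above the WT mean in each knockdown library. The chromosome was picked on these same libraries, and each is set against the same WT mean. The values are therefore independent neither of that choice nor of each other. Relative to the mean of the WT libraries, the median member had a log2 ratio of 0.32 in knockdown A, 0.43 in knockdown B and 0.36 in knockdown C. Each WT library, set against the mean of the other WT libraries, had -0.03, 0.02 and 0.01 for A, B and C. For the 8737 expressed protein-coding genes on the other chromosomes, the knockdown medians were -0.02, 0.02 and -0.02. The 215 expressed genes of chromosome 14 past 40 Mb went the other way, with -0.45, -0.41 and -0.41.

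**Figure D1:**
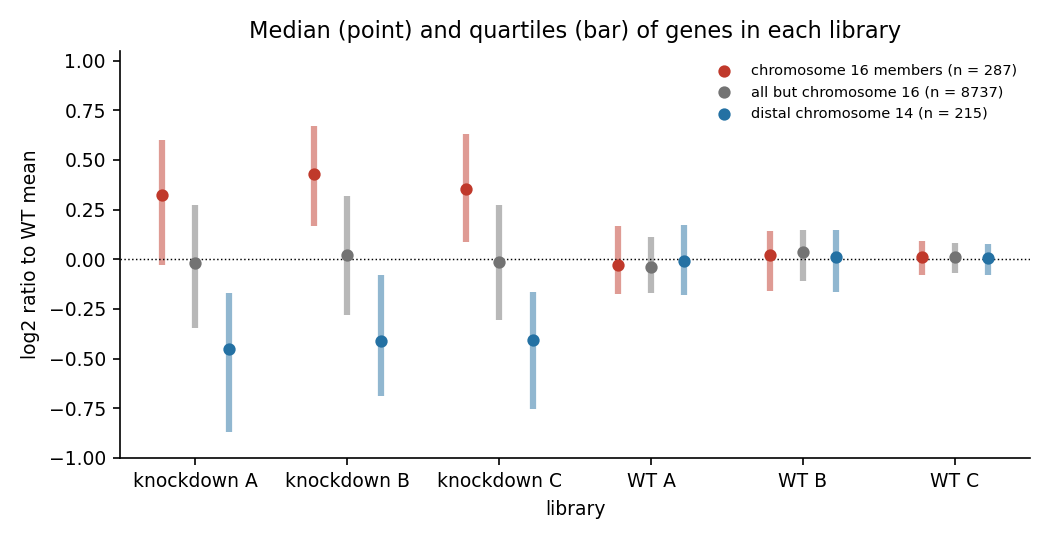
Log2 ratio of each library to the mean of the WT libraries (for a WT library, of the other WT libraries), with the median as a point and the quartiles as a bar, for chromosome 16 members, distal chromosome 14 and all chromosomes but 16. The 3 knockdown medians of chromosome 16 lie between 0.32 and 0.43, and its WT medians lie between -0.03 and 0.02.

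At the same minimum level, chromosome 16 had the highest median of the 20 chromosomes compared. The next were chromosome 2 at 0.15 over 746 genes and chromosome 1 at 0.13 over 498 genes. The lowest was chromosome 14 at -0.32 over 305 genes. The lower quartile of chromosome 16, at 0.11, lay above the median of every other chromosome except 1 and 2, so the bulk of its genes sat higher and not a few that pulled the median. Genes of chromosome 16 that the rule left out also had positive medians, but their values were spread more widely than those of the members. The 50 tested protein-coding genes under the minimum had a median of 0.58, with quartiles of 0.06 and 1.55. Of these, 21 were called higher and 1 lower. The 40 tested genes of other biotypes had a median of 0.37, with quartiles of 0.01 and 0.80. Of these, 8 were called higher and 4 lower. In both sets the share called higher was below that of the members. Just inside the minimum lay Prkdc at a mean of 4.07 CPM (log2 fold change -0.14) and Parp14 at 4.203 CPM (-2.02), and just outside it Lrch3 at 3.98 CPM (-0.42) and Ccdc14 at 3.98 CPM (0.07). For 9 members the mean of 1 group alone was under 4 CPM, so that they reached the minimum through the other group. Among the genes described here these were Rtp4, Parp14, Cip2a and Prkdc, and, with the low mean in WT, Fam43a, Iqcg and Arvcf.

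**Figure D2:**
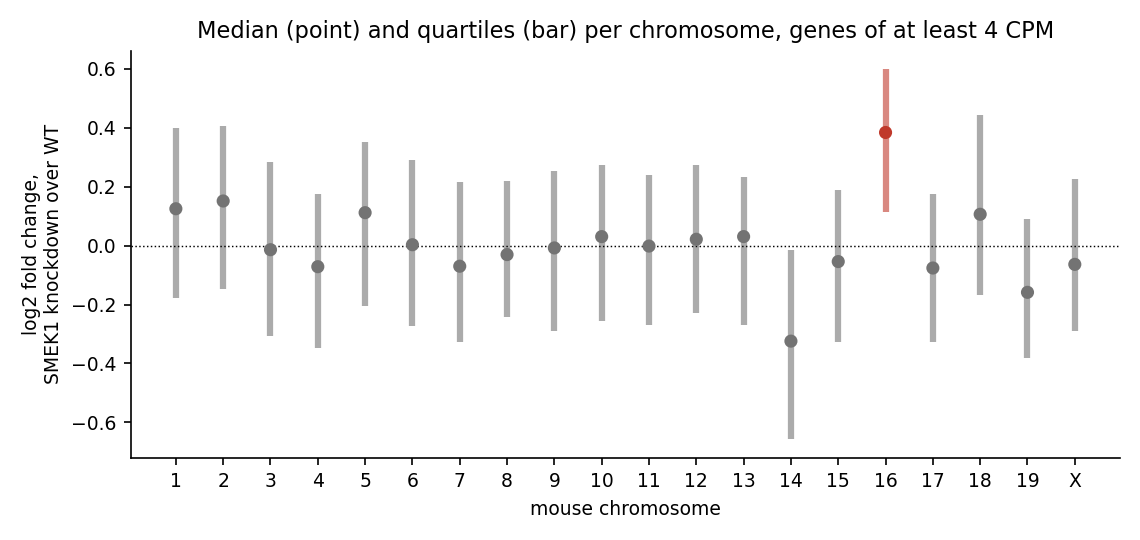
Median log2 fold change (point) and quartiles (bar) of expressed protein-coding genes on each mouse chromosome, knockdown over WT. Chromosome 16 has the highest median at 0.38 and chromosome 14 the lowest at -0.32.

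Tested one by one against WT, 157 members (54.7%) were called higher in the knockdown at an adjusted p under 0.05, and 17 (5.92%) were called lower. Over all genes tested the shares were 20.5% higher and 19.6% lower, and since the chromosome was chosen on this contrast nothing is read from the comparison. All 3 knockdown libraries lay above all 3 WT libraries for 172 members (59.9%, against 26.7% of all genes) and below them for 18 (6.27%, against 24.3%). The groups overlapped for the other 97. Among called members 17 were at least 2-fold higher and 3 at least 2-fold lower. The 17 lower members numbered 11 without knockdown C and 8 with library totals as the scaling. With library totals the median of all genes was 0.17 in place of 0.01 and that of the members 0.54, so the members stood 0.38 above all genes, against 0.37 with TMM.

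A second test asked of each gene whether its change differed from the members' median of 0.38. Of the 287 members 174 (60.6%) were not told apart from that common shift, 53 (18.5%) were called above it and 60 (20.9%) below it. Over all genes tested 7.2% were called above and 49.3% below. The p-values were adjusted over all these genes, most of them on other chromosomes. The threshold for the members therefore depends on genes outside the set, and adjustment over the members alone was not done. All 53 members above the shift were also called higher than WT. Of the 60 below it, 17 were called lower than WT and 43 were not called against WT. The median log2 fold change of the 60 was -0.16. A member not called against WT is not shown to lie at its WT level. Of the 174 not told apart, 104 were called higher than WT and 70 were not called. A member not told apart from the shift is not shown to follow it, since the SE of its change had a median of 0.12 over all members and reached 0.34.

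**Figure D3:**
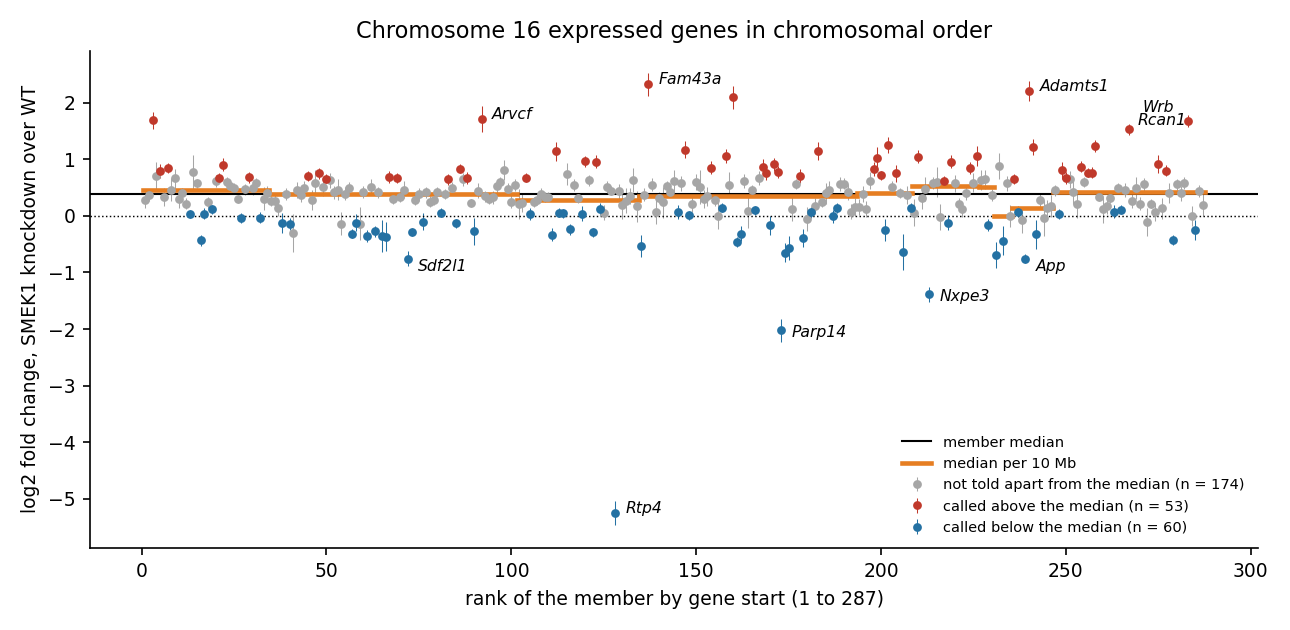
Log2 fold change of the 287 members in chromosomal order (x axis, rank by gene start), with bars of 1 SE, the members' median (black line), 0 (dotted) and the median of each 10 Mb (orange). Red points are the 53 members called above the median and blue points the 60 called below it, and both kinds are scattered along the whole order.

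Along the chromosome most windows had medians near the shift. The medians between 70 and 90 Mb were lower but rest on few members with wide quartiles. The quartiles were -0.44 and 0.58 from 70 to 80 Mb, and -0.06 and 0.46 from 80 to 90 Mb. Whether the shift is weaker there was not tested. The 10 windows of 10 Mb held 4 to 67 members each. In the 6 windows from the start of the chromosome to 60 Mb the median was 0.28 to 0.53, and in the last one, from 90 to 100 Mb with 41 members, it was 0.42. Between 70 and 90 Mb, where members are few, the medians were -0.01 over 5 members, 2 of them called higher, and 0.14 over 11, 3 of them called higher, and between 60 and 70 Mb the median was 0.51 over 4. The longest uninterrupted stretch of members above 0 was 27 genes from Cct8 to Dopey2, chr16:87483326-93810590, followed by 25 genes from Lsg1 to Iqcg and 20 from Tango2 to Alg3. Neighbouring members did not resemble each other in how far they were shifted: over 286 neighbouring pairs, which share libraries, Pearson's r was -0.00 and Spearman's rho 0.02.

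The shift depended little on how many counts a member had. Members at 4.07 to 19.5 CPM had a median of 0.28, those at 19.7 to 46.7 CPM 0.42, and those at 47.1 to 941 CPM 0.34. By listed gene length, the median was 0.46 for the 96 shortest members (850 to 3637 bases), 0.37 for the 95 in the middle and 0.27 for the 96 longest (6192 to 23420 bases). Spearman's rho between change and length was -0.22 over the 287 members and -0.06 over 9024 expressed protein-coding genes, given as descriptions.

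The members described next have very different functions. They were chosen, among members of at least 50 CPM, because their changes lay nearest the common shift, so that closeness is no result. Klhl22, which encodes an adaptor of a cullin ubiquitin ligase, was at 171, 143 and 149 CPM in the knockdown and at 107, 129 and 118 CPM in WT, a log2 fold change of 0.38 (SE 0.09). Litaf, which encodes a membrane protein of late endosomes and lysosomes, was at 616, 506 and 528 CPM against 379, 454 and 431 CPM, also 0.38 (SE 0.10). For both genes the lowest knockdown library lay above the highest WT library. Pi4ka, a phosphatidylinositol 4-kinase, had 0.38 (SE 0.12). Gspt1, the translation termination factor eRF3, had 0.37 (SE 0.13), Ap2m1, the clathrin adaptor subunit, 0.39 (SE 0.11), Atp6v1a, a subunit of the vacuolar proton pump, 0.39 (SE 0.14), and Ncbp2, a subunit of the nuclear cap-binding complex, 0.42 (SE 0.09). All of these were called higher than WT, although for Atp6v1a and Gspt1 the groups overlapped and the calls were lost with upper quartile scaling and without knockdown B or C or WT B or C. Without knockdown B their changes were 0.24 (Atp6v1a and Gspt1). Pi4ka lost its call without knockdown B (adjusted p = 0.0523) or WT B (adjusted p = 0.0798).

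The members with the most counts did not move alike. Sod1, cytosolic superoxide dismutase, rose from 504 ± 34.9 to 688 ± 53.7 CPM (SD, n = 3), a log2 fold change of 0.45 (SE 0.09), and was not told apart from the shift (adjusted p = 0.557). Atp5o, a subunit of mitochondrial ATP synthase, rose by 0.49 (SE 0.09), and Hmgn1, a nucleosome-binding protein, by 0.58 (SE 0.10). Hmgn1 was called above the shift with library totals (0.0493), with no filter on low counts (0.0447) and without knockdown B (0.0222). Eif4g1, the scaffold of the translation initiation complex, was at 561, 595 and 562 CPM in the knockdown and at 552, 544 and 572 CPM in WT. Its log2 fold change was 0.04 (SE 0.08), with overlapping groups, and it was called below the shift (adjusted p = 0.00235). Psmd2, a subunit of the proteasome cap, had 0.06 (SE 0.08) and was also called below the shift (adjusted p = 0.00555). With library totals both Eif4g1 and Psmd2 were called higher than WT (adjusted p = 0.0352 and 0.00919) and below the shift as before. Trap1, a mitochondrial chaperone of the HSP90 family, went further than the shift, from 278 ± 28.2 to 500 ± 30.6 CPM (SD, n = 3; adjusted p = 0.00114 against the shift). Rpl35a, a protein of the large ribosomal subunit, went the other way: it fell from 1101 ± 101 to 796 ± 26.9 CPM (SD, n = 3), a log2 fold change of -0.47 (adjusted p = 0.00143, SE 0.09). With library totals its change was -0.31 and still called (adjusted p = 0.00189). Ribosomal protein and HMGN genes have processed pseudogene copies, so counts of Rpl35a and Hmgn1 are uncertain.

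The interferon-induced members escaped the shift downwards. Of 4 members on this list 4 were called lower than WT and 4 below the shift, against 5.92% and 20.9% of all members. Their median was -1.34. Rtp4 and Parp14 reached the minimum level only through the WT libraries, where they are high, so this count and median describe the members and support nothing further. Rtp4, a transmembrane protein induced by interferon (chr16:23520291-23614222, plus strand), was at 1.83, 0.932 and 1.94 CPM in the knockdown and at 49.9, 67.0 and 61.7 CPM in WT. Every knockdown library was thus far below every WT library, and the log2 fold change of -5.25 (adjusted p = 1.43e-08, SE 0.21) was the lowest of all members. Parp14, a mono-ADP-ribosyltransferase, was at 1.78, 1.55 and 1.81 CPM against 7.39, 7.27 and 6.23 CPM, and it fell by 2.02 on the log2 scale (adjusted p = 1.79e-05, SE 0.21).

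Dtx3l and Parp9 are neighbours on opposite strands whose products act together as a ubiquitin ligase and ADP-ribosyltransferase complex. Dtx3l (chr16:35926511-35939151) was at 8.14, 10.7 and 8.30 CPM against 15.6, 12.5 and 14.6 CPM, and it fell by 0.65 on the log2 scale (adjusted p = 0.00841, SE 0.16; 0.0562 with library totals). Parp9 (chr16:35938470-35972605) was at 8.20, 15.2 and 11.1 CPM against 20.5, 14.9 and 16 CPM. Its groups overlapped, and its call at -0.57 (adjusted p = 0.0478, SE 0.21) was lost without knockdown A (0.1455, change -0.38), C (0.1232) or the WT libraries A (0.1525) or C (0.08128), and when scaled to library totals (0.2032) or upper quartiles (0.08943). Both stayed below the shift in each of the 12 alternatives tried for that test. They share 458 exon bases, and since the counting is not stated to use strand, reads there cannot be assigned to one of them. The list holds 4 further genes, which were no members. Mx2, of the antiviral GTPase family, is listed as a polymorphic pseudogene and so falls outside the protein-coding rule at any level. It was at 0.313 to 0.496 CPM in the knockdown and 0.529 to 1.62 CPM in WT, and its neighbour Mx1 at 0 to 0.294 CPM in the 6 libraries. Socs1, a feedback inhibitor of cytokine signalling, stood at a log2 fold change of 0.50 (adjusted p = 0.279, SE 0.35), and Ciita had 1 count in knockdown A and 0 in the other libraries.

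The receptors through which interferons act rose, 3 of the 4 beyond the shift. Ifnar2, Il10rb, Ifnar1 and Ifngr2 lie side by side in a cluster, chr16:91372783-91565623. All 4 were called higher, with a median of 0.76. Of all members 54.7% were called higher and 18.5% above the shift. Il1rap, a receptor gene listed with them, was no member. Ifnar2, a chain of the type I interferon receptor, was at 107, 101 and 107 CPM in the knockdown against 50.4, 64.1 and 57.7 CPM in WT, and it rose by 0.87 (SE 0.09; adjusted p = 0.000871 against the shift). Ifnar1, the other chain, was at 70.9, 73.3 and 75.2 CPM against 41.5, 44.0 and 43.9 CPM, a rise of 0.76 (SE 0.08; adjusted p = 0.00165 against the shift). Ifngr2, a chain of the interferon-gamma receptor, rose by 0.76 (SE 0.09; adjusted p = 0.00393 against the shift). Il10rb, which serves the interleukin-10 and interferon-lambda receptors, rose by 0.60 (SE 0.09) and was not told apart from the shift (adjusted p = 0.0568; 0.0110 without knockdown B, 0.0412 without WT B, 0.0304 with upper quartile scaling and 0.0241 with library totals). For each of the 4 receptors all knockdown libraries lay above all WT libraries, as they did for 59.9% of all members. Tmem50b, the next gene, rose by 1.24 (SE 0.11), from 14.9 ± 0.495 to 35.1 ± 2.88 CPM (SD, n = 3).

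**Figure D4:**
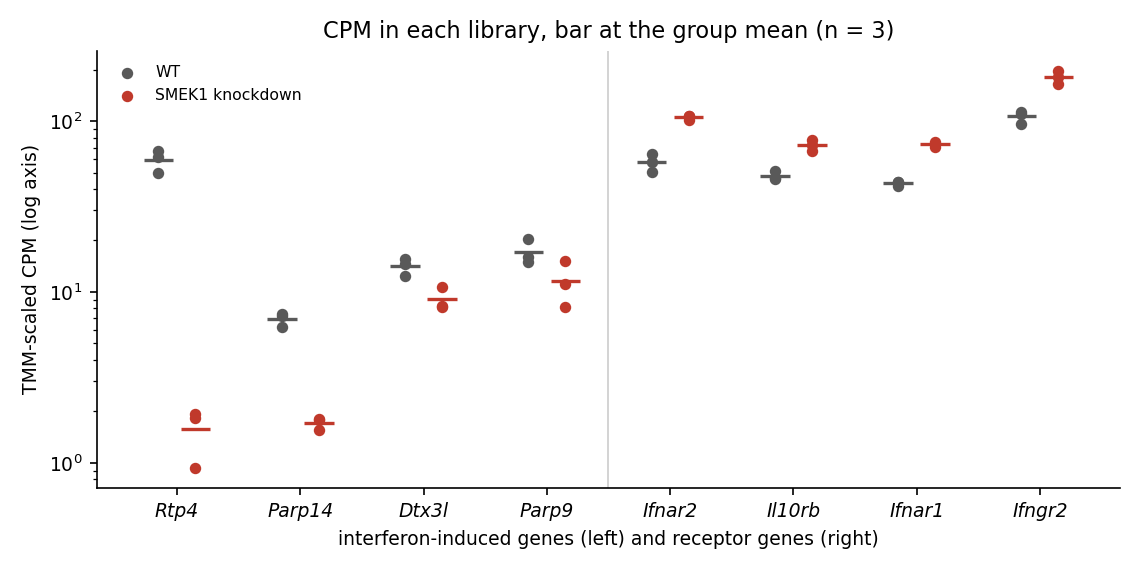
TMM-scaled CPM of the 4 interferon-induced members (left) and the 4 receptor genes (right) in each library, on a log axis, with a bar at each group mean (n = 3). Rtp4 falls from 49.9 to 67.0 CPM in WT to under 2 CPM, while all 4 receptor genes are higher in every knockdown library.

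The largest rises were in genes of many kinds. Fam43a was at 16.2, 11.6 and 12.8 CPM in the knockdown against 2.43, 2.98 and 2.71 CPM in WT, the largest rise of all members at 2.32 (SE 0.20). Adamts1, a secreted protease of the extracellular matrix (chr16:85793827-85803113, minus strand), was at 27.9, 38.8 and 33.6 CPM against 9.01, 6.44 and 6.29 CPM, a rise of 2.2 (SE 0.17). Wrb, a receptor that inserts tail-anchored proteins into the endoplasmic reticulum, rose by 1.68 (SE 0.10), from 16.5 ± 0.838 to 52.9 ± 3.87 CPM (SD, n = 3). Rcan1, an inhibitor of the phosphatase calcineurin (chr16:92391953-92470867, minus strand), was at 101, 84.3 and 84.0 CPM against 28, 34.0 and 31.5 CPM, a rise of 1.53 (SE 0.11). In all of these the groups were far apart, and each was called above the shift, with adjusted p of 1.30e-06 to 7.57e-06.

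The other large rises were Iqcg (2.09), a ciliary protein gene, Arvcf (1.72), a catenin, Slc35a5 (1.25), a member of the nucleotide-sugar transporter family, N6amt1 (1.22), a methyltransferase, Cep19 (1.17), a ciliary and centrosomal protein, and Rabl3 (1.15), a small GTPase. Their SE were 0.14 to 0.23, and each was called above the shift. Iqcg and Arvcf, like Fam43a, reached the minimum level only through the knockdown libraries, so the minimum itself helped to place them among the largest rises. Iqcg and Arvcf had few counts, at 1.73 ± 0.284 and 2.01 ± 0.0464 CPM in WT (SD, n = 3). Iqcg shares 2965 exon bases with Lrch3, and Arvcf also shares exon bases with another gene, so part of their counts is uncertain. The same holds for 1700037C18Rik, a gene known by its clone name that rose by 1.69 (SE 0.15) and shares 573 exon bases with its neighbour Naa60. Iqcg lies next to Rpl35a, which fell.

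Outside the interferon list, the largest falls were in Nxpe3, Sdf2l1 and App. Nxpe3 was at 10.8, 10.3 and 9.12 CPM in the knockdown against 26.9, 24.6 and 27.6 CPM in WT, and it fell by 1.39 on the log2 scale (adjusted p = 7.63e-06, SE 0.13). Sdf2l1, a component of endoplasmic reticulum chaperone complexes, was at 61.5, 41.5 and 45.1 CPM against 82.3, 89.7 and 78.4 CPM, and it fell by 0.76 (adjusted p = 0.000714, SE 0.13). App, the amyloid precursor protein gene (chr16:84949685-85173766, minus strand), was at 137, 141 and 120 CPM against 230, 214 and 228 CPM, and it also fell by 0.76 (adjusted p = 3.065e-05, SE 0.08). The groups did not overlap for any of these 3 genes.

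The remaining members among the lowest changes were less firm. Gbe1, the glycogen branching enzyme, had -0.69 (adjusted p = 0.0276, SE 0.22), a call lost with upper quartile scaling (0.0505), with library totals (0.113) and on leaving out knockdown A (0.0877), knockdown C (0.0692) or WT A (0.105). Atp13a3, a polyamine transporter, had -0.53 (adjusted p = 0.0398, SE 0.19), lost with upper quartile scaling (0.0795), with library totals (0.201) and on leaving out knockdown A (0.144), knockdown C (0.1199), WT A (0.169, change -0.32) or WT C (0.0721). Both were below the shift in all 12 alternatives. Cip2a, an inhibitor of protein phosphatase 2A, was at 8.09 CPM in WT A and at 2.61 to 3.82 CPM in the other libraries, and its change of -0.63 (adjusted p = 0.130, SE 0.31) was not called against WT. It was called lower without WT B (-0.85, adjusted p = 0.0485) and with no filter on low counts (0.0461). It was called below the shift (adjusted p = 0.0160), a call lost on leaving out knockdown A (0.0627) or WT A (0.101), and without WT A its difference from the shift was -0.53 in place of -1.02. The deubiquitinase gene Usp25 had -0.44 (adjusted p = 0.187, SE 0.25; 0.0411 without knockdown B) and was called below the shift (adjusted p = 0.0151; 0.0602 without WT A).

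The counts of the lists that follow are to be read against all members, of which 54.7% were called higher than WT, 5.92% lower, 18.5% above the shift and 20.9% below it. No list was tested against the other members. Among 22 transcription factors and chromatin proteins 8 rose and 3 fell, with a median of 0.27, and 1 was above the shift and 3 below it. Ets2, an ETS factor, was at 40.6, 40.4 and 39.4 CPM in the knockdown against 51.4, 55.3 and 54.8 CPM in WT, and it fell by 0.42 on the log2 scale (adjusted p = 0.00185, SE 0.08). With library totals its change was -0.26 and still called (adjusted p = 0.0152). Cebpd, a C/EBP factor of the inflammatory response, fell by 0.35 (adjusted p = 0.0213, SE 0.11), a call lost without knockdown B (0.0629), WT B (0.0622) or WT C (0.107) and with library totals (0.131). The last that fell was Etv5, another ETS factor, named here after its value was seen, at -0.29 (adjusted p = 0.0144, SE 0.08). N6amt1 was the one member above the shift. Mkl2, a coactivator of serum response factor, rose by 0.59 (adjusted p = 0.0468, SE 0.22) with overlapping groups, a call lost with upper quartile scaling and on leaving out any of the libraries except knockdown A. Without knockdown B its change was 0.36.

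Kinases and signalling adaptors had shares close to those of all members: of 17, 9 rose (52.9%) and 0 fell, with a median of 0.38, and 3 were above the shift (17.6%) and 4 below it (23.5%). At the low end Hcls1, an actin regulator of blood cells, had 0.06 (SE 0.10) and Pak2, a kinase activated by Rac and Cdc42, 0.07 (SE 0.12), both with overlapping groups. Both were called below the shift (adjusted p = 0.0180 and 0.0436). Hcls1 lost that call without knockdown B, knockdown C, WT B or WT C, and Pak2 without knockdown A or C or WT A or C, and with library totals or upper quartile scaling. With library totals Hcls1 was called higher than WT (adjusted p = 0.0479).

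Of 8 surface and adhesion proteins 3 rose (37.5%) and 1, App, fell (12.5%), with a median of 0.22. The Cd200r genes, which encode the inhibitory CD200 receptor of myeloid cells and its relatives, lie next to each other and did not move together. Cd200r4 was at 79.6, 77.6 and 75.7 CPM in the knockdown against 46.8, 49.3 and 45.4 CPM in WT, a rise of 0.72 (SE 0.08; adjusted p = 0.00332 against the shift). Cd200r1 was at 12.5, 18.6 and 18.5 CPM against 8.79, 6.56 and 9.11 CPM, a rise of 1.02 (SE 0.19; adjusted p = 0.0141 against the shift, 0.0684 without knockdown C and 0.0524 without WT B). Cd200r2, named after its value was seen, had -0.25 (adjusted p = 0.323, SE 0.19) with overlapping groups and was called below the shift (adjusted p = 0.0150). Paralogues in this cluster are alike in sequence, so the division of counts between them is uncertain. Cd86, a costimulatory ligand of T cells, had -0.39 (adjusted p = 0.0723, SE 0.16; 0.0121 without knockdown B and 0.0434 without WT B) and was called below the shift (adjusted p = 0.00152).

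Of 15 genes of translation and the ribosome 9 rose and 1, Rpl35a, fell, with a median of 0.37, and 3 were above the shift and 3 below it. Igf2bp2, an RNA-binding protein that stabilises mRNA, was at 92.3, 110 and 88.2 CPM in the knockdown against 50.5, 46.5 and 51.9 CPM in WT, a rise of 0.96 (SE 0.10; adjusted p = 0.000333 against the shift). Urb1, a ribosome biogenesis factor, rose by 0.67 (SE 0.10), and its call above the shift (adjusted p = 0.0304) was lost without knockdown C or any 1 of the WT libraries and with no filter on low counts. Of 12 mitochondrial proteins 7 rose and 0 fell, with 3 above the shift and 3 below it. Nit2, an omega-amidase, and Tomm70a, an import receptor of the outer membrane, are neighbours on opposite strands that share 41 exon bases. Nit2 was at 119, 96.4 and 110 CPM against 50.4, 66.8 and 49.9 CPM and rose by 0.96 (SE 0.12), while Tomm70a had -0.12 (SE 0.13) with overlapping groups and was called below the shift (adjusted p = 0.00617). Slc25a1, the citrate carrier, had -0.13 (SE 0.08) and was also below the shift (adjusted p = 0.000147).

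Of 15 members of the ubiquitin, SUMO and proteasome list 6 rose and 0 fell, with a median of 0.27. Cblb, a ubiquitin ligase that restrains immune receptors, was at 27.4, 28.3 and 27.0 CPM in the knockdown against 13.2, 14.4 and 12.6 CPM in WT, a rise of 1.04 (SE 0.11; adjusted p = 0.000433 against the shift). The SUMO protease gene Senp5 rose by 0.61 (adjusted p = 0.0277, SE 0.20) with overlapping groups, a call lost without knockdown B, knockdown C, WT B or WT C. Usp16, a deubiquitinase, had -0.04 (SE 0.325).

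Of 11 genes of DNA replication and repair 5 rose and 0 fell. Top3b, a topoisomerase, and Mis18a, which helps load centromeric histone, rose by 0.69 (SE 0.10) and 0.80 (SE 0.15), both above the shift (adjusted p = 0.0235 and 0.0302), calls each lost without knockdown A, knockdown C, WT A or WT C. Without WT A the difference of Mis18a from the shift was 0.28 in place of 0.42. Mcm4, a subunit of the replicative helicase, and Prkdc, the DNA-dependent protein kinase, start close together on opposite strands. Their changes were -0.12 (SE 0.16) and -0.14 (SE 0.29), both with overlapping groups, and Mcm4 was called below the shift (adjusted p = 0.0162; 0.0523 without knockdown C).

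Of 13 genes of RNA processing 5 rose and 0 fell, with a median of 0.17, and 1 was above the shift and 4 below it. Parn, a deadenylase, rose by 0.75 (SE 0.10; adjusted p = 0.00714 against the shift), and Tra2b, a splicing regulator, by 0.63 (SE 0.10), called above the shift with no filter on low counts (0.0263) and without knockdown A (0.00334). Dgcr8, the partner of Drosha in microRNA processing, had -0.27 (adjusted p = 0.379, SE 0.23), and its call below the shift (adjusted p = 0.0312) was lost with library totals (0.0634), with upper quartile scaling (0.0517) and without knockdown A or C or WT A or C. Without WT A its difference from the shift was -0.39 in place of -0.66. Zc3h7a had -0.30 with an SE of 0.34, the largest SE of all members, and was not told apart from the shift (adjusted p = 0.105). Its difference from the shift, -0.68, was -1.12 without knockdown B, where it was called below (adjusted p = 0.00540), as it was with no filter on low counts (0.00254). Of 19 genes of metabolism and transport 10 rose and 2 fell, Abcc1 and Atp13a3. Abcc1, an exporter of glutathione conjugates and drugs, was at 70.3, 76.7 and 78.3 CPM in the knockdown against 93.8, 90.5 and 95.6 CPM in WT. It fell by 0.31 on the log2 scale (adjusted p = 0.00695, SE 0.08; 0.140 with library totals). Pigp, a subunit of the enzyme that starts glycosylphosphatidylinositol anchors, rose by 0.92 (SE 0.155), above the shift (adjusted p = 0.01155; 0.05305 without knockdown A), and Pmm2, a phosphomannomutase, by 0.58 (SE 0.09). Pmm2 was called above the shift with upper quartile scaling (0.0456) or library totals (0.0318) and without knockdown B (0.0267) or WT B (0.0356).

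**Figure D5:**
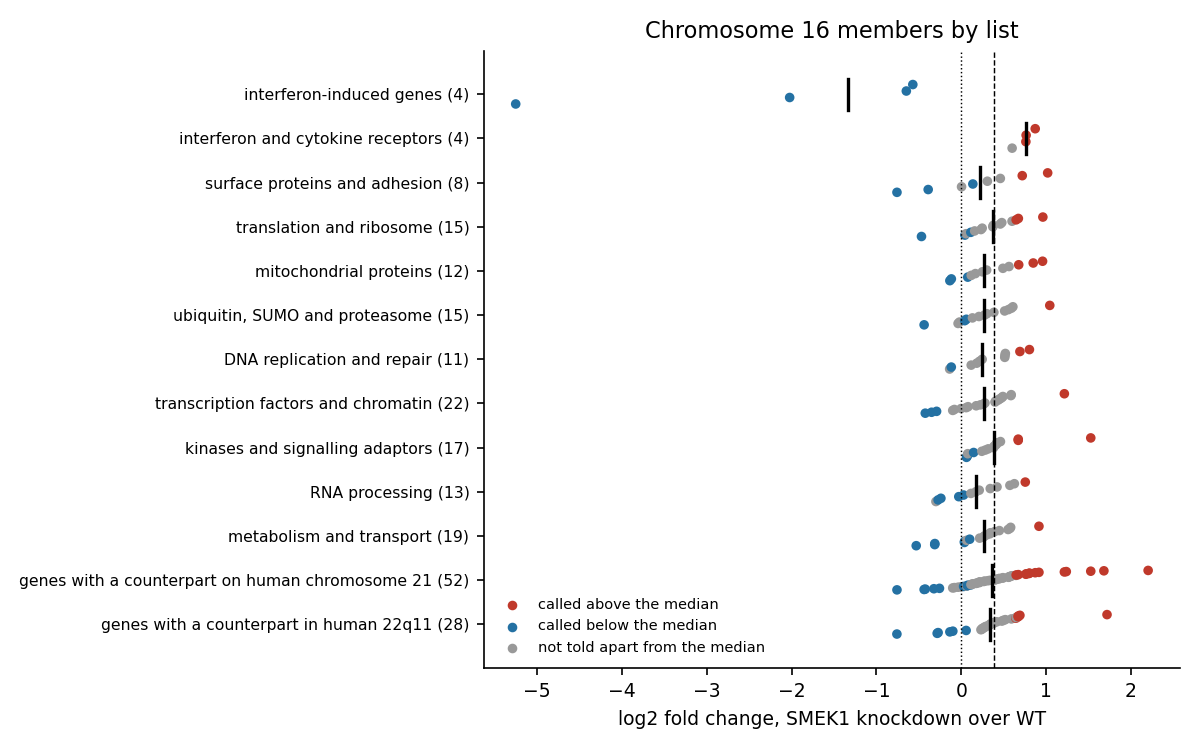
Log2 fold change of the members on each list (number of members in brackets), with a bar at each list's median, the median of all 287 members (dashed) and 0 (dotted). The list medians lie between 0.17 and 0.38 except for interferon-induced genes at -1.34 and the receptors at 0.76.

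Listed members of the segments conserved with human chromosomes had medians near that of all members. These lists may not hold every member with such a counterpart, so their counts and shares describe the listed genes only. Of 52 listed members with a counterpart on human chromosome 21, 25 rose (48.1%, against 54.7% of all members) and 2 fell. Their median was 0.37 and their range -0.76 (App) to 2.2 (Adamts1). Of these, 13 were above the shift (25%) and 9 below it (17.3%), against 18.5% and 20.9% of all members. Of 28 listed members with a counterpart in human 22q11, 20 rose (71.4%) and 2, Sdf2l1 and Ydjc, fell. Their median was 0.34 and their range reached up to 1.72 (Arvcf). Ydjc, a carbohydrate deacetylase-like gene, fell by 0.28 on the log2 scale (adjusted p = 0.0125, SE 0.08), a call lost without knockdown B (0.0573) or knockdown C (0.0830) and with library totals (0.153). It shares 1969 exon bases with Ube2l3 and Ccdc116. In all, 69 of the 287 members share exon bases with another expressed gene. Over the 218 that share none the median was 0.39, with 115 called higher and 12 lower.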

How the data were processed

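RNA of 6 BV2 libraries was analysed, 3 labelled SMEK1 knockdown and 3 labelled WT. The authors deposited whole-number counts per Ensembl gene, with the build GRCm38 (mm10) per the submitters' processing notes. No source used here gives the aligner, the counter, the use of strand or the annotation release. The FPKM values that the authors deposited, reads scaled to gene length and library size, were used for 1 alternative. All 287 members have the same start and end in GENCODE M21.

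Counts were fitted over 12269 genes kept by filterByExpr with edgeR 4.0.16 in R 4.3.3, with TMM scaling, glmQLFit and glmQLFTest. P-values were Benjamini-Hochberg adjusted over all genes tested, and genes were called under 0.05. CPM are TMM-scaled. The SE is |log2 fold change| over the root of the F statistic. For the second test the members' median was added as an offset to the knockdown libraries and treated as fixed. Scripts were tested on simulated data. The members, lists and tests were chosen with earlier results of these data known.

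Named genes are the 12 largest and 12 smallest changes, the 10 with most counts, the 8 of at least 50 CPM nearest the median (1 predicted gene is left unnamed), up to 4 extremes per list, and those next to the minimum; some of these are not reported here. Alternatives were other scalings, filters, minimum levels, DESeq2 1.42.0, limma 3.58.1 on log2(FPKM + 1), a replicate block and leaving out each library. Members without shared exons were added after the data were seen.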

Additional observations from a re-analysis of the deposited data

How the results depend on the processing

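The members' median log2 fold change of 0.38 was 0.54 with library totals, where the median of all genes moved with it, and 0.30 by limma on log2(FPKM + 1), a scale that understates changes of low genes. On leaving out each library it was 0.36 to 0.41, members called higher numbered 125 to 162, called lower 11 to 16, above the median 39 to 67 and below it 42 to 58. Called lower were 8 with library totals and 10 with the replicate block. With the replicate block 112 were called higher, 41 above and 42 below the median. The letters do not pair the libraries: across genes, deviations of same-letter libraries had correlations of -0.36 (A), -0.33 (B) and 0.00 (C). DESeq2 called 147 members higher and 17 lower. Over 72 named members, 804 of 864 differences from the median kept their direction and side of the threshold, 45 lost the call and 15 gained it. Over 75 named genes, 904 of 975 log2 fold changes did so, 63 lost the call and 8 gained it, and 0 called values turned direction. Of these losses and gains, those with the replicate block are given only here, in the counts. Depth limits the members near the minimum: the 96 with the fewest counts had a median SE of 0.18, against 0.09 for the 96 with the most.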
